A study of Mus musculus with 16 samples.

Results

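The response of mouse bone marrow-derived monocytes (BMDMs) to RANKL was described in cells that received the vector and no inhibitor. Its members were 8 of the 16 libraries of the series, 4 labelled MR + vector, with M-CSF and RANKL, and 4 labelled M + vector, with M-CSF alone. They were chosen by their labels, not by their values. The cells came from C57BL/6 mice by the labels, and from C57BL/6J mice of 4 to 6 weeks according to the methods of the study, and libraries were made after a day with vector or inhibitor. M-CSF, the cytokine that keeps the macrophage lineage alive, was present at 50 ng/ml in every group, and RANKL at 100 ng/ml was the only addition that set the MR cultures apart. In the other 8 libraries, M + iBRD9 and MR + iBRD9, the cells received iBRD9. It is an inhibitor of the bromodomain of the chromatin remodelling subunit BRD9. Each group has replicates 1 to 4 in its labels, which do not state whether a replicate was a culture, an animal or a repeated library. The p-values therefore cover the spread from library to library only, and this spread may be technical.

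RANKL binds its receptor RANK on cells of the macrophage lineage and directs them towards the osteoclast, the multinucleated cell that resorbs bone. M-CSF alone drives the same precursors towards macrophages, which clear dying cells, take up lipoproteins and recycle iron from haem. Genes of resorption, NF-kB signalling and the interferon response are the usual readouts of RANKL. The text below deals mainly with genes beyond those lists. They are genes of surface receptors, secreted signals, transporters, metabolic enzymes, transcription factors, cytoskeleton and protein synthesis. Genes of resorption, NF-kB signalling and the interferon response were left out when the largest changes were named. They were not taken out of the counts of the other lists, which may hold some of them.

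The 8 libraries held 15372775 to 18377070 counts, with 1.70% to 1.86% of them on mitochondrial genes. The first principal component of these 8 libraries held 61.9% of the variance and separated MR + vector from M + vector. The second held 6.92%, with replicate 2 of MR + vector at 18.35 and replicate 3 at -13.62. Of the 10 macrophage markers all were tested, and Adgre1 and Cd14, at 1222 and 328 CPM (read counts scaled to a common library size) in M + vector, did not pass the test. Of the 10 markers 5 were lower and 3 higher, with a median log2 change of -0.14. Mertk fell by 1.08 on the log2 scale, and Csf1r, Fcgr1 and Itgam were also lower. Spi1 rose by 0.41, and Lyz2, the largest rise in mean CPM among the named genes, rose by 0.27. Markers of other cells differed in level between lists. The summed level of the 13 tested of 16 neutrophil markers was 123 to 133 CPM in M + vector and 104 to 125 CPM in MR + vector. Of these, 3 were lower and 1 higher. The summed level of the 7 tested of 16 markers of stromal cells, osteoblasts and endothelium was 28.4 to 34.7 CPM and 27.1 to 27.9 CPM. The osteoblast markers Sp7 and Bglap2 had no count, and of the 7 tested members 4 were lower and 1 higher. Without replicate 4 of MR + vector, 2 of these members were lower. The summed level of the 3 tested of 12 erythroid and megakaryocyte markers was 201 to 230.5 CPM in M + vector and 105 to 121 CPM in MR + vector. Nearly all of it was Pf4, at 199 to 229 and 104 to 120 CPM, while Hba-a2 and Gp1bb had no count. The sum over the 5 tested of 12 dendritic cell markers was 248 to 300.5 CPM and 360.5 to 390 CPM. Nearly all of it was Bst2, at 261 ± 24.2 and 368 ± 11.8 CPM, the member called higher among the 5. The part of these cells in the results below was not tested.

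Every later change is a log2 change ± SE from the quasi-likelihood test of edgeR, fitted on all 16 libraries and adjusted over 11559 genes by the Benjamini-Hochberg method, and a gene was called at an adjusted p below 0.05. RANKL moved a large part of the transcriptome. Of the 11559 genes tested, 4709 were called, 40.7% of all, with 2323 higher (20.1%) and 2386 lower (20.6%), and the median change over all genes was -0.001. Most changes were small. At a threshold of 2-fold in addition, 313 genes were higher (2.71%) and 259 lower (2.24%), together 4.95%. The 4 and 4 libraries did not overlap for 4407 genes, 38.1% of those tested. With so many genes called, a list is read against these shares. In a bulk sample, fewer cells of a type and less RNA per cell cannot be told apart.

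**Figure D1:**
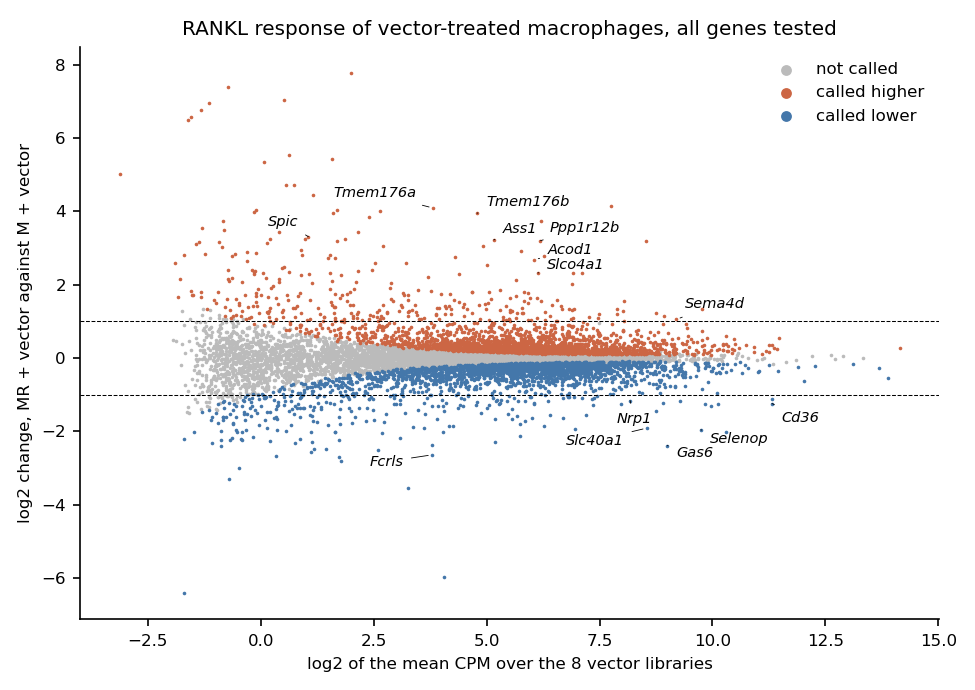
Each point is 1 of the 11559 genes tested, with the log2 of its mean CPM over the 8 vector libraries on the x axis and its log2 change between MR + vector and M + vector on the y axis. Dashed lines mark a 2-fold change. Called genes lie above and below the line of no change in nearly equal number, 2323 and 2386.

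The neighbouring genes Tmem176a and Tmem176b, which encode membrane proteins related to the MS4A family, stood among the largest rises. Tmem176a (ENSMUSG00000023367, chr6:48817853-48824005, plus strand, GRCm39) had 1.58, 1.91, 1.70 and 1.03 CPM in M + vector and 22.9, 34.5, 22.8 and 26.2 CPM in MR + vector. Tmem176b (ENSMUSG00000029810, chr6:48810752-48818430, minus strand) had 3.80, 3.29, 1.32 and 5.05 CPM in M + vector and 51.3, 59.5, 46.5 and 50.2 CPM in MR + vector. Both genes were far higher in every library with RANKL, with no overlap, and replicate 2 was the highest of the MR + vector libraries for both. The changes were 4.09 ± 0.18 (adjusted p = 3.4e-19) and 3.95 ± 0.16 (adjusted p = 3.4e-20). The gene models point away from each other and share 578 bases at their starts. Whether the counting used strand is not given, so reads of the shared stretch cannot be told apart. The promoter windows are shown because they overlap. In RefSeq (GRCm38.p6) each gene has more than 1 start, and a window runs from 250 bases before to 50 bases after a start. The windows chr6:48841233-48841532 of Tmem176a (plus strand) and chr6:48841325-48841624 of Tmem176b (minus strand) share 208 bases. Both are printed 5′ to 3′, and capitals mark the single match to the NF-kB consensus, which is the same 10 bases, chr6:48841397-48841406, read on opposite strands.
Tmem176a: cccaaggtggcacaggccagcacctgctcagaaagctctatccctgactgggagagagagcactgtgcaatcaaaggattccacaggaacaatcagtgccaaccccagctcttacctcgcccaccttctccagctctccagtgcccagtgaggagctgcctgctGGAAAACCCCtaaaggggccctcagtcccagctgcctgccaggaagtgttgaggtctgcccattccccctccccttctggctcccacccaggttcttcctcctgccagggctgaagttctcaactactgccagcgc
Tmem176b: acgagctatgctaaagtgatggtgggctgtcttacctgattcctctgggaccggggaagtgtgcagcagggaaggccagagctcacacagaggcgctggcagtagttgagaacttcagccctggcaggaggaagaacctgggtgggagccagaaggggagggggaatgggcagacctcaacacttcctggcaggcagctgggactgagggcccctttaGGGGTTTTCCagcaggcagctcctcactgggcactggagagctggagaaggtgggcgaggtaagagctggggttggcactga
The match stood in 1 of the 2 windows of Tmem176a and 1 of the 3 windows of Tmem176b. It is a match of letters and no measured site. Of all 32851 promoter windows 4.51% held the NF-kB consensus on either strand, against 8.11% of 37 windows of 24 risers and 10.8% of 37 windows of 22 fallers, the matched genes among the 25 largest named rises and falls. The AP-1 motif TGANTCA was in 2.70% of the riser and 5.41% of the faller windows (7.81% of all), the E-box CACGTG in 5.41% and 2.70% (7.15% of all), and the CRE half-site TGACG in 13.5% and 29.7% (20.8% of all). The NF-kB consensus was in 3 of these risers, Tmem176a, Tmem176b and Slc6a12, so the shared site of the first 2 is counted 2 times. Genes of the NF-kB list were left out of the named rises and falls, so their share is not that of all changed genes.

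Among the related Ms4a genes the direction was mixed. Of 11 tested members of both families 4 were higher and 1 was lower (45.5% called, near the 40.7% of all genes). The higher members were Tmem176a and Tmem176b themselves, Ms4a4c and Ms4a6b. Ms4a4c rose from 6.76 ± 1.32 to 15.2 ± 1.13 CPM (SD, n = 4, as for every mean ± SD below), and Ms4a4a fell from 4.38 ± 1.25 to 1.24 ± 0.22 CPM. These are neighbouring gene copies with similar sequences, which makes their counts uncertain.

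Most genes of tissue-resident macrophages were lower after RANKL. Of 40 genes listed, 34 were tested, 3 had too few counts and 3 had no count, and 27 of the 34 were lower and 4 higher, with 16 lower and 2 higher by at least 2-fold. The median change was -0.93, against -0.001 over all genes. Gas6 (ENSMUSG00000031451, chr8:13515374-13544490) encodes the ligand that bridges dying cells to the receptors AXL and MERTK. It had 858, 930, 839 and 811 CPM in M + vector and 160, 172, 159 and 167 CPM in MR + vector, a change of -2.39 ± 0.04 (adjusted p = 5e-29). Its 4 RANKL libraries lay within a narrow band far below every M + vector library. Selenop, the plasma carrier of selenium, had 1384, 1416, 1280 and 1377 CPM in M + vector and 344, 384, 332 and 345 CPM in MR + vector (-1.96 ± 0.05, adjusted p = 3e-25). Fcrls, an Fc receptor-like gene used to mark microglia in mice, fell from 24.0 ± 2.65 to 3.84 ± 0.47 CPM, and Cd5l, a secreted scavenger protein of resident macrophages, fell from 87.4 ± 4.65 to 20.1 ± 1.79 CPM. P2ry12, the ADP receptor of microglia and platelets, fell from 29.5 ± 2.17 to 11.4 ± 1.18 CPM. Cbr2, a carbonyl reductase, fell from 13.9 ± 1.12 to 3.04 ± 0.66 CPM.

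Members of the same list also rose. Spic, the transcription factor that red pulp macrophages of the spleen depend on, had 0.12, 0.24, 0.44 and 0.69 CPM in M + vector and 3.38, 4.28, 4.15 and 3.31 CPM in MR + vector (3.31 ± 0.32, adjusted p = 1.8e-10). It stayed at a low level in all 8 libraries, but its groups did not overlap. Adgre4, an adhesion G protein-coupled receptor related to F4/80, rose from 0.22 ± 0.11 to 1.40 ± 0.18 CPM, and Marco, a scavenger receptor, rose by 0.30 ± 0.05.

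**Figure D2:**
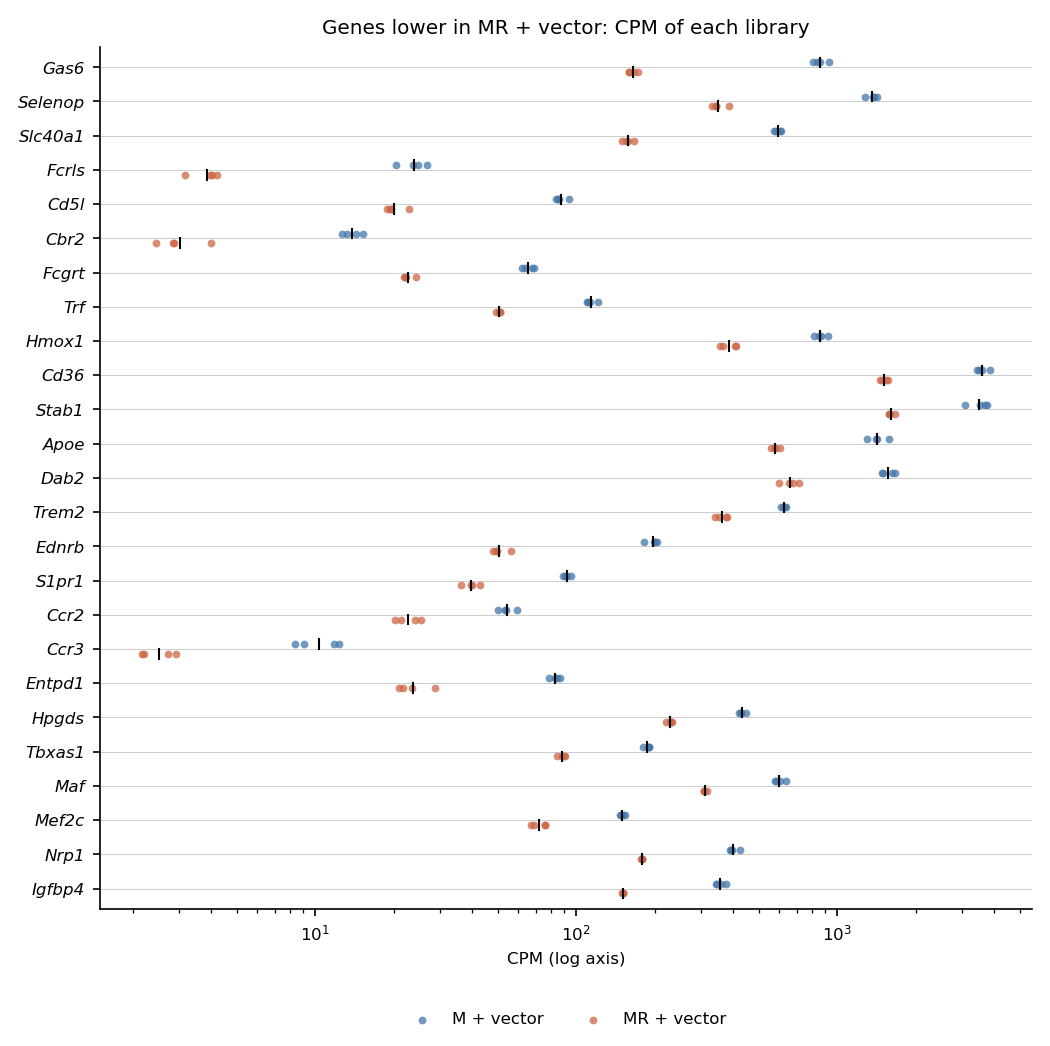
CPM of each library (log axis) for 25 genes that fell, with M + vector in blue, MR + vector in orange and a black bar at the mean of 4. For each gene the 4 MR + vector points lie below the 4 M + vector points, and Gas6 moves from 811 to 930 CPM down to 159 to 172 CPM.

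More genes of iron and haem handling fell than rose. Of 39 tested members 16 were lower and 6 higher (56.4% called), with a median of -0.15. Slc40a1, which fell, and Spic, which rose, are also in the resident macrophage list. Slc40a1 (ENSMUSG00000025993, chr1:45947228-45965683) encodes ferroportin, the exporter through which macrophages return iron to the plasma. It had 611, 604, 572 and 586 CPM in M + vector and 150, 167, 158 and 156 CPM in MR + vector (-1.91 ± 0.05, adjusted p = 5.7e-26). Hmox1, the haem oxygenase that opens the haem ring, had 817, 851, 865 and 922 CPM in M + vector and 409, 355, 408 and 367 CPM in MR + vector (-1.17 ± 0.06, adjusted p = 5.8e-17). All RANKL libraries were low for both genes. Trf, transferrin, fell from 114 ± 4.89 to 50.7 ± 0.89 CPM. Spic, with few counts, had the largest log2 change of the list, a rise of 3.31 ± 0.32. No other rise reached 2-fold. Alas1, the first enzyme of haem synthesis, rose from 115 ± 4.22 to 169 ± 4.81 CPM. Slc11a2, the importer DMT1, rose from 54.1 ± 1.93 to 75.9 ± 3.95 CPM.

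Receptors for debris, lipoproteins and dying cells were lower in most cases. Of 27 tested scavenger and apoptotic cell receptors 16 were lower and 4 higher, and 8 were lower by at least 2-fold against 1 higher. The list shares members with the resident macrophage list, among them Gas6, Cd5l and Mrc1, which fell, and Marco, which rose. Cd36, the receptor for oxidised lipoproteins and fatty acids, had 3584, 3432, 3505 and 3841 CPM in M + vector and 1487, 1456, 1573 and 1544 CPM in MR + vector (-1.24 ± 0.04, adjusted p = 3.2e-23). Stab1, the scavenger receptor stabilin 1, fell from 3511 ± 298 to 1605 ± 38.6 CPM, and Trem2, a lipid-sensing receptor of macrophages and microglia, fell from 625 ± 13 to 362 ± 18.6 CPM. Msr1, scavenger receptor A, went the other way, from 435 ± 17.1 to 567 ± 28.8 CPM. Dab2, an endocytic adaptor that binds receptors of the LDL receptor family, fell from 1571 ± 86.8 to 661 ± 46.8 CPM.

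Genes of cholesterol efflux and lipid storage were lower more often than higher. Of 55 tested members 24 were lower and 10 higher (61.8% called). Apoe, the apolipoprotein that accepts cholesterol leaving macrophages, fell from 1428 ± 117 to 579 ± 20.2 CPM (-1.30 ± 0.06), and Nceh1, a cholesterol ester hydrolase, fell from 562 ± 18.7 to 370 ± 12.3 CPM. Acsl1, which activates fatty acids, had 57.4, 51.8, 57.1 and 53.2 CPM in M + vector and 145, 142, 146 and 150 CPM in MR + vector. Lpcat2, an acyltransferase that makes platelet-activating factor, rose from 30.1 ± 1.29 to 93.8 ± 3.90 CPM. Nr1h3, the oxysterol receptor LXR alpha, rose from 5.62 ± 0.84 to 13.5 ± 0.75 CPM while the level of its known target Apoe fell.

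Receptors that guide cell movement changed in both directions. Of 17 tested chemokine and chemoattractant receptors 8 were lower and 4 higher (70.6% called). Ccr2, which brings inflammatory monocytes to tissues, had 54.1, 50.2, 53.4 and 59.2 CPM in M + vector and 21.3, 25.4, 20.2 and 24.2 CPM in MR + vector (-1.25 ± 0.08, adjusted p = 3.3e-14). Ccr3, the eotaxin receptor, fell from 10.4 ± 1.94 to 2.51 ± 0.38 CPM. Fpr2, a formyl peptide receptor, rose from 2.22 ± 0.36 to 6.03 ± 1.85 CPM with replicate 2 of MR + vector, at 3.57 CPM, the lowest of the 4. Cx3cr1, the fractalkine receptor, rose from 12.6 ± 1.94 to 95.5 ± 7.38 CPM. Of 32 tested monocyte genes 11 were higher and 9 lower, and 6 were higher by at least 2-fold against 1 lower. Spn, the sialoprotein CD43, which is high on patrolling monocytes, rose from 25.1 ± 0.99 to 88.2 ± 7.16 CPM, and Ifitm6 from 33.1 ± 0.68 to 77.4 ± 4.66 CPM.

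Chemokine ligands also changed in both directions, with 8 of 18 tested members higher and 6 lower (77.8% called). By at least 2-fold, however, 7 were higher and 1 lower (44.4%, against 4.95% of all genes). Ccl6 had 1229, 1256, 1244 and 1397 CPM in M + vector and 544, 548, 532 and 510 CPM in MR + vector (-1.26 ± 0.04, adjusted p = 2.1e-21). Pf4, a chemokine known from platelets, fell from 214 ± 12.2 to 115 ± 7.46 CPM. Cxcl16, a membrane-bound chemokine that is also a scavenger receptor, rose from 31.3 ± 3.24 to 89.0 ± 3.30 CPM. The direction thus differed from gene to gene within the family, but most changes of at least 2-fold were rises.

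Other G protein-coupled receptors included some of the largest changes of the surface genes. Of 170 genes of the list 73 were tested, 18 were higher and 24 lower, and 9 in each direction changed by at least 2-fold. Gpr132, a receptor reported to respond to lipids and to protons, had 10.9, 10.2, 7.90 and 8.84 CPM in M + vector and 54.4, 56.8, 53.7 and 54.2 CPM in MR + vector (2.53 ± 0.09, adjusted p = 3.1e-21). The orphan receptor Gpr162 rose from 14.8 ± 1.73 to 51.4 ± 7.67 CPM. Ednrb, the endothelin B receptor, had 204, 201, 182 and 198 CPM in M + vector and 49.4, 48.0, 49.7 and 56.3 CPM in MR + vector (-1.95 ± 0.06, adjusted p = 6.6e-24). S1pr1, the sphingosine 1-phosphate receptor that steers cells out of tissues, fell from 92.0 ± 2.66 to 39.7 ± 2.62 CPM. P2ry13, an ADP receptor beside P2ry12, fell from 10.2 ± 0.92 to 3.52 ± 0.51 CPM, and the orphan receptor Gpr176 fell from 5.81 ± 0.86 to 0.88 ± 0.53 CPM.

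C-type lectin receptors were higher more often than lower. Of 19 tested members 8 were higher and 3 lower, and 4 were higher by at least 2-fold. Clec5a, which signals through DAP12, had 27.3, 27.6, 29.2 and 31.1 CPM in M + vector and 80.8, 86.0, 84.3 and 85.9 CPM in MR + vector (1.55 ± 0.06, adjusted p = 1.7e-20). The fungal and mycobacterial glycolipid receptor Clec4e (Mincle) rose from 57.5 ± 4.86 to 146 ± 5.06 CPM, and Clec4n (Dectin-2) from 13.6 ± 0.79 to 34.1 ± 2.91 CPM. The inhibitory lectin Clec12a also rose, by 0.42 ± 0.04. Clec10a, a lectin for galactose residues, fell by 0.54 ± 0.11.

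The other paired immune receptors showed no common direction. Of 20 Fc, Pir and Lilr receptors 9 were higher and 7 lower (80.0% called). Fcgrt, the neonatal Fc receptor that rescues IgG and albumin from lysosomes, fell from 65.6 ± 3.26 to 22.7 ± 1.11 CPM. Lilra6 rose from 8.89 ± 2.09 to 20.3 ± 1.41 CPM and Lilrb4a from 468 ± 22.8 to 609 ± 19.5 CPM, both from gene clusters of close copies. Of 16 Trem and Cd300 receptors 9 were lower and 2 higher. Cd300lb fell from 270 ± 4.50 to 206 ± 7.87 CPM, whereas Cd300ld rose from 205 ± 15.1 to 255 ± 9.25 CPM. Cd33, an inhibitory receptor for sialic acid, fell from 60.4 ± 1.85 to 29.7 ± 1.05 CPM. Of 20 complement genes 8 were lower and 3 higher, with the largest fall at -0.90 and 2 rises of at least 2-fold. These were C3, the central component, by 4.16 ± 0.07, and Cd55, a regulator on cell surfaces, from 0.574 to 1.04 CPM in M + vector to 11.4 to 12.3 CPM in MR + vector. C1qb and C1qc, chains of the recognition molecule of the classical pathway, fell by 0.65 ± 0.05 and 0.75 ± 0.05, and Cfp, properdin, rose from 723 ± 22.1 to 1021 ± 26.2 CPM.

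Osteoclasts act on osteoblasts and vessels through secreted and membrane-bound factors. Of 9 tested genes of such factors 7 were higher and 2 lower, 5 of them higher by at least 2-fold, with a median of 1.05. Another 7 of the 20 listed genes had too few counts and 4 had none, and the list was written with earlier results known. Sema4d, a semaphorin with which osteoclasts restrain osteoblasts, had 410, 370, 383 and 366 CPM in M + vector and 815, 812, 769 and 774 CPM in MR + vector (1.05 ± 0.04, adjusted p = 3e-20). Pdgfb, a growth factor for vessel-associated cells, rose from 16.4 ± 2.47 to 45.6 ± 1.47 CPM. The list also holds C3, its largest rise. The 2 lower members were Spp1 (osteopontin), the most abundant of the list, from 5112 ± 93.4 to 3301 ± 81.1 CPM, and Hgf, the hepatocyte growth factor, which fell by 0.44 ± 0.13 on the log2 scale with overlapping libraries. The summed level of the 9 tested genes was 6028 to 6288 CPM in M + vector and 5109 to 5392 CPM in MR + vector.

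Semaphorins and their receptors steer axons, vessels and bone cells. Of 29 tested genes of semaphorins, plexins, ephrins and related receptors 11 were higher and 9 lower, 6 and 7 of them by at least 2-fold (44.8%, against 4.95% of all genes). Nrp1 and Nrp2 are co-receptors for class 3 semaphorins and VEGF. Nrp1 had 394, 389, 393 and 424 CPM in M + vector and 179, 177, 179 and 179 CPM in MR + vector (-1.16 ± 0.04, adjusted p = 1.8e-20). Nrp2 had 455, 469, 487 and 465 CPM in M + vector and 892, 890, 882 and 889 CPM in MR + vector (0.92 ± 0.03, adjusted p = 3.1e-21). The levels of the 2 genes thus differed in opposite directions between the groups. Among their partners, Plxna1 rose from 328 ± 13.8 to 630 ± 21.1 CPM and Plxnc1 fell from 195 ± 9.92 to 118 ± 5.86 CPM. Flrt2, an adhesion protein that binds Unc5 receptors, rose from 51.4 ± 4.75 to 106 ± 9.81 CPM.

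Growth factors and their receptors fell slightly more often than they rose, 16 against 12 of 42 tested, with 5 in each direction changed by at least 2-fold. The largest rise was that of Vegfc, a growth factor of lymphatic vessels, with 0.0584, 0.0598, 0.0549 and 0.344 CPM in M + vector, 9 counts in all, and 6.19, 4.28, 6.43 and 6.39 CPM in MR + vector. Igf1 fell from 722 ± 42.7 to 424 ± 12.9 CPM, Igfbp4, which binds IGF, from 357 ± 13.8 to 151 ± 0.33 CPM, and Tgfbr2, the TGF-beta receptor, from 193 ± 7.06 to 126 ± 3.36 CPM. Of 30 interleukin and colony-stimulating factor receptors 10 were higher and 12 lower. Il2rg, the common gamma chain, had 29.0, 28.8, 29.9 and 22.6 CPM in M + vector and 99.0, 97.1, 90.5 and 87.5 CPM in MR + vector (1.76 ± 0.10, adjusted p = 1.5e-16). Il15ra rose from 5.24 ± 1.16 to 10.1 ± 0.95 CPM, and Il1rn, the IL-1 receptor antagonist, from 23.3 ± 3.25 to 62.4 ± 3.12 CPM. Lifr, the receptor of leukaemia inhibitory factor, fell from 24.3 ± 2.38 to 8.90 ± 1.76 CPM. Tnfrsf11a, which encodes RANK itself, rose by 0.23 ± 0.05 and Csf1r, the M-CSF receptor, fell by 0.32 ± 0.03.

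Ligands and receptors of the TNF superfamily were higher in 11 and lower in 3 of 26 tested members, 6 and 1 of them by at least 2-fold. Tnfsf15, the T cell costimulator TL1A, had 0.53, 0.18, 0.44 and 0.29 CPM in M + vector and 5.75, 8.44, 3.92 and 6.05 CPM in MR + vector (4.04 ± 0.35, adjusted p = 1.9e-11). Fas, the death receptor, rose from 9.69 ± 1.75 to 26.0 ± 1.65 CPM, and Tnfrsf13b, the receptor TACI, fell from 51.9 ± 3.12 to 34.7 ± 2.00 CPM. The SLAM, CD28 and B7 family held 9 higher and 7 lower of 22 tested members, and all 5 changes of at least 2-fold were rises. Slamf6 had 0.12, 0.66, 0.17 and 0.52 CPM in M + vector and 4.98, 5.65, 6.96 and 5.02 CPM in MR + vector. The ligands Cd274 (PD-L1) and Cd86 rose from 26.1 ± 3.74 to 56.2 ± 0.87 CPM and from 4.14 ± 0.57 to 9.80 ± 1.20 CPM. Slamf8 rose from 5.86 ± 0.47 to 14.4 ± 1.51 CPM. Vsir, the inhibitory ligand VISTA, fell from 334 ± 7.78 to 197 ± 7.68 CPM, and Cd28, known as the costimulatory receptor of T cells, from 99.1 ± 8.55 to 67.5 ± 5.37 CPM.

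**Figure D3:**
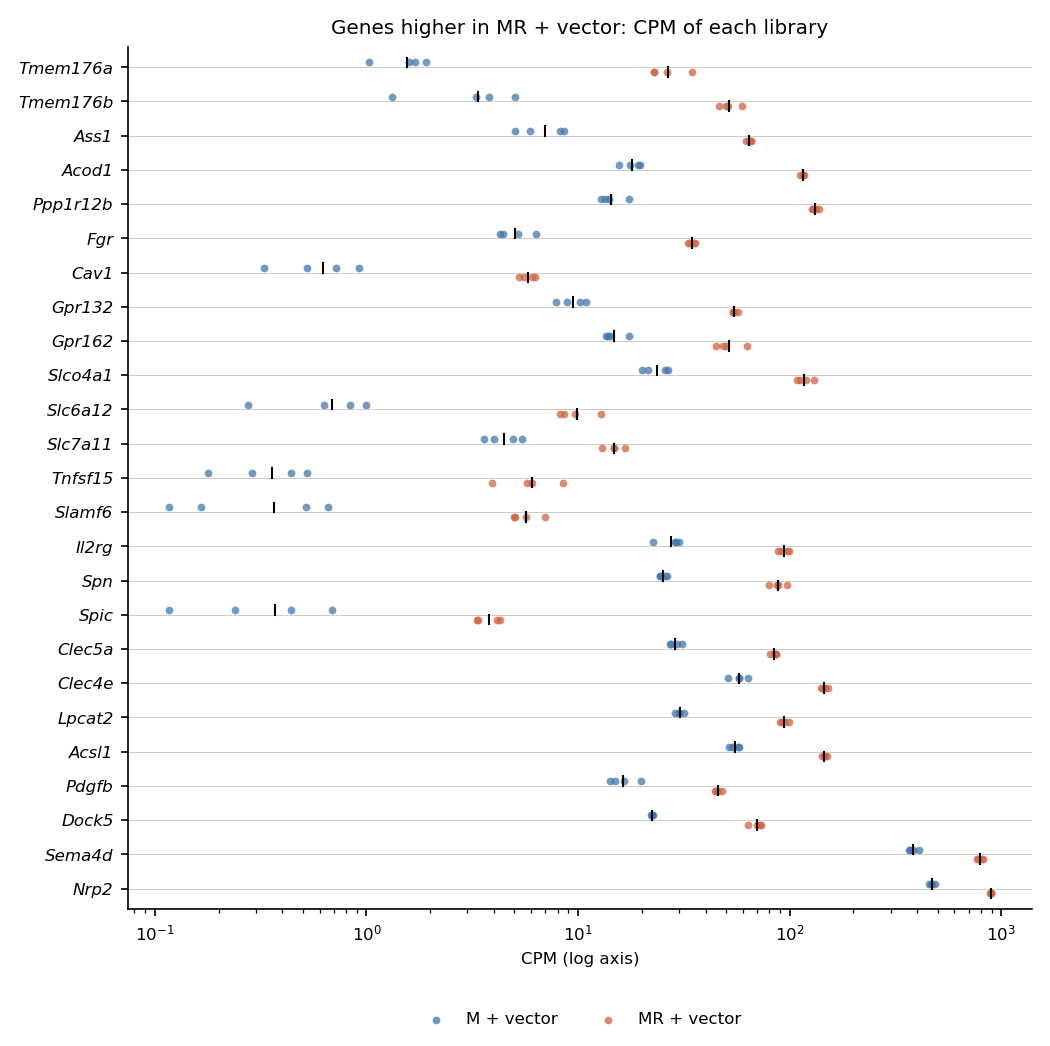
CPM of each library (log axis) for 25 genes that rose, with M + vector in blue, MR + vector in orange and a black bar at the mean of 4. For each gene the 4 MR + vector points lie above the 4 M + vector points, as for Ppp1r12b, from 12.8 to 17.3 CPM up to 128 to 137 CPM.

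Of 390 solute carriers 219 were tested, and 48 were higher and 64 lower (51.1% called), 12 and 8 of them by at least 2-fold. The log2 changes of the list ran from -5.97 to 6.77, so its largest fall and rise are not among the genes below. Slco4a1, a transporter of organic anions, had 26.6, 21.4, 25.8 and 20.1 CPM in M + vector and 130, 119, 108 and 112 CPM in MR + vector (2.32 ± 0.07, adjusted p = 1.8e-22). Slc6a12, the transporter of betaine and GABA, rose from 0.68 ± 0.31 to 9.84 ± 2.06 CPM (3.84 ± 0.27). Slc7a11, the cystine importer, rose from 4.49 ± 0.84 to 14.8 ± 1.54 CPM. Slc4a7, a bicarbonate importer, rose from 53.1 ± 3.59 to 117 ± 7.25 CPM, and Slc16a3, the lactate exporter MCT4, from 103 ± 1.65 to 196 ± 9.70 CPM. Slc9a9, an endosomal proton exchanger, fell from 126 ± 2.30 to 43.1 ± 2.92 CPM. Slc26a11, an anion transporter, fell from 55.0 ± 5.37 to 17.4 ± 0.84 CPM. Of 81 ion channels 19 were higher and 24 lower. The potassium channel gene Kcnj2 rose from 30.4 ± 2.97 to 71.8 ± 4.52 CPM, and Orai2, a subunit of store-operated calcium channels, from 30.2 ± 0.90 to 61.4 ± 2.33 CPM.

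Arginine synthesis and the diversion of the citric acid cycle to itaconate are known from activated macrophages. Ass1 (ENSMUSG00000076441, chr2:31360219-31410684), argininosuccinate synthase, which rebuilds arginine from citrulline, had 8.23, 8.55, 5.93 and 5.05 CPM in M + vector and 65.9, 62.0, 65.6 and 64.4 CPM in MR + vector (3.22 ± 0.11, adjusted p = 2.9e-22). Acod1, which makes itaconate from aconitate, had 15.6, 19.5, 19.2 and 17.5 CPM in M + vector and 117, 112, 116 and 116 CPM in MR + vector (2.68 ± 0.07, adjusted p = 4.4e-24). The RANKL libraries lay close together for both genes. Mthfd2, a mitochondrial enzyme of folate metabolism, rose from 63.5 ± 3.63 to 109 ± 3.01 CPM, and Paox, which oxidises acetylated polyamines, fell from 32.5 ± 1.52 to 15.7 ± 1.71 CPM. Of 49 tested genes of arginine, polyamine, serine and one-carbon metabolism 22 were higher and 7 lower, with a median of 0.13.

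Eicosanoid synthesis was lower in 13 and higher in 6 of 29 tested members (65.5% called). Hpgds, the prostaglandin D synthase of myeloid cells, had 428, 427, 420 and 449 CPM in M + vector and 228, 234, 221 and 231 CPM in MR + vector (-0.92 ± 0.04, adjusted p = 1.3e-19). Tbxas1, thromboxane synthase, fell from 188 ± 4.62 to 88.4 ± 2.63 CPM, and Ptges, a prostaglandin E synthase, rose from 2.67 ± 0.24 to 6.11 ± 0.49 CPM. Redox genes were higher in 27 and lower in 16 of 76 tested members. Ncf4 and Cybb, subunits of the phagocyte NADPH oxidase, rose from 96.7 ± 4.12 to 211 ± 7.86 CPM and from 772 ± 45.5 to 1118 ± 49.5 CPM. Among peroxide-removing enzymes Gpx1 rose from 1164 ± 59.4 to 1674 ± 50.4 CPM, the secreted Gpx3 fell from 60.3 ± 1.32 to 26.6 ± 2.93 CPM and Cat, catalase, from 768 ± 12.1 to 533 ± 7.56 CPM.

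Of 54 tested genes of nucleotide metabolism 25 were higher and 14 lower (72.2% called), and 9 were lower without replicate 1 of MR + vector. Uck2, a uridine-cytidine kinase of the salvage pathway, rose from 27.2 ± 0.57 to 55.6 ± 4.34 CPM. Entpd1 (CD39), which breaks down extracellular ATP and ADP, had 84.6, 86.5, 78.5 and 82.8 CPM in M + vector and 23.6, 28.9, 21.8 and 20.9 CPM in MR + vector (-1.81 ± 0.08, adjusted p = 6.2e-19). The ADP receptors P2ry12 and P2ry13, described above, fell in the same libraries.

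Transcription factors of the myeloid and lymphoid lineages were lower more often than higher, in 38 against 20 of 99 tested members (58.6% called), but changes of at least 2-fold were 4 each way. Maf, a factor of mature macrophages, had 603, 636, 585 and 578 CPM in M + vector and 308, 310, 308 and 318 CPM in MR + vector (-0.95 ± 0.04, adjusted p = 1e-19). Mef2c, which microglia also depend on, fell from 150 ± 2.93 to 72.1 ± 4.51 CPM, and Lmo2, a blood lineage cofactor, from 191 ± 8.64 to 101 ± 10.3 CPM. Bhlhe40, a repressor active in macrophages, rose from 10.5 ± 1.43 to 26.7 ± 1.76 CPM, and Klf4, a factor of monocyte differentiation, from 8.38 ± 1.04 to 21.5 ± 2.18 CPM. Of 31 nuclear receptors and their partners 11 were lower and 3 higher. Pparg, a lipid-sensing receptor, fell from 38.3 ± 1.97 to 23.7 ± 2.07 CPM and its partner Rxra from 69.9 ± 5.83 to 43.3 ± 1.80 CPM, and Ahrr, the repressor of the aryl hydrocarbon receptor, rose from 4.07 ± 0.18 to 13.8 ± 1.91 CPM.

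Osteoclasts attach to bone through a ring of actin, and several genes of the cytoskeleton and membrane changed. Dock5, the Rac activator that osteoclasts need for their sealing zone, had 22.2, 22.3, 22.3 and 22.7 CPM in M + vector and 73.5, 69.7, 63.6 and 72.0 CPM in MR + vector (1.64 ± 0.06, adjusted p = 3.8e-21). Cdc42ep2, an effector of Cdc42, rose from 1.62 ± 0.31 to 9.91 ± 0.55 CPM, and Rnd3, an atypical small GTPase, from 8.43 ± 2.14 to 28.1 ± 2.61 CPM. Arhgap19, a GTPase-activating protein, fell from 224 ± 9.20 to 106 ± 2.75 CPM. Ppp1r12b, a regulatory subunit of myosin phosphatase, had 14, 17.3, 13.4 and 12.8 CPM in M + vector and 129, 133, 128 and 137 CPM in MR + vector (3.20 ± 0.09, adjusted p = 7.4e-24). Fgr, a myeloid kinase of the Src family, rose from 5.04 ± 0.93 to 34.4 ± 1.08 CPM, and Cav1, the coat protein of caveolae, from 0.62 ± 0.25 to 5.77 ± 0.47 CPM. Ezr, which links actin to the membrane, rose from 62.7 ± 2.35 to 126 ± 3.29 CPM, and the vesicle motor Myo5a fell from 535 ± 8.42 to 326 ± 6.56 CPM.

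Matrix genes were lower in 25 and higher in 18 of 64 tested members (67.2% called), 9 and 4 of them by at least 2-fold. Lama3, a laminin chain, fell from 23.3 ± 2.81 to 4.51 ± 0.79 CPM, and Vcan, the proteoglycan versican, rose from 1.44 ± 0.13 to 7.50 ± 0.32 CPM. The collagen genes Col1a1, Col1a2 and Col3a1, which are also stromal markers, fell by 0.76, 0.81 and 0.94. Of 16 annexins and S100 proteins 4 were higher and 4 lower, with Anxa1, which helps to end inflammation, up from 656 ± 24.5 to 1097 ± 16.4 CPM and Anxa3 down from 310 ± 10.9 to 198 ± 6.98 CPM. Genes of cell death and survival were higher in 15 and lower in 6 of 42 tested members. Pmaip1 (Noxa), a promoter of apoptosis, rose from 15.2 ± 0.78 to 41.4 ± 4.19 CPM and Gsdmd, the pore protein of pyroptosis, from 93.6 ± 2.01 to 162 ± 3.32 CPM. Bcl2l1, which encodes the protective BCL-XL, fell from 140 ± 11.7 to 83.9 ± 9.67 CPM, and Sesn1, a stress-induced inhibitor of mTORC1, from 220 ± 11.9 to 102 ± 3.72 CPM. Btg1, an anti-proliferative gene, rose from 144 ± 9.84 to 333 ± 16.3 CPM.

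In the lists of protein synthesis, folding, transport and breakdown, the members that passed the test were mostly higher, and few changed by 2-fold. Of 21 cytosolic aminoacyl-tRNA synthetases 12 were higher and none lower (57.1% called), by edgeR at an adjusted p below 0.05, and no change reached 2-fold. Nuclear pore and transport genes were higher in 30 and lower in none of 48, splicing factors higher in 38 and lower in 1 of 77, proteasome subunits higher in 23 and lower in none of 47, and chaperones higher in 19 and lower in 1 of 35. Medians were 0.20, 0.21, 0.12, 0.14 and 0.15 in this order. The chaperones held 2 members higher by at least 2-fold, the inducible HSP70 genes Hspa1b, from 0.604 to 0.976 CPM in M + vector to 3.62 to 6.45 CPM in MR + vector, and Hspa1a, its near-identical copy. The split of reads between these copies is uncertain, and Hspa1a was named after its values were seen. At an unadjusted p below 0.05, 1 nuclear pore gene and no synthetase, proteasome or cytosolic ribosomal protein gene was lower, and DESeq2 called 0 of them lower. Examples are Vars, the valine tRNA ligase, from 108 ± 7.12 to 186 ± 3.43 CPM, Kpna3, an importin, from 110 ± 1.46 to 155 ± 3.18 CPM, Hnrnpa1, a splicing regulator, from 436 ± 27.4 to 568 ± 13.7 CPM, and Psme2, a subunit of the proteasome activator, from 90.2 ± 2.97 to 135 ± 3.35 CPM. The translation factor gene Eif5a rose from 492 ± 14.1 to 718 ± 24.6 CPM, in a list with 25 higher and 5 lower of 67, of which Eef1a2 alone passed 2-fold, with -1.41. Cytosolic ribosomal proteins were higher in 26 and lower in none of 81 (32.1% called, under the 40.7% of all genes), and the count was 44 with the 8 vector libraries fitted alone. Rplp0 rose by 0.23 ± 0.04. Mitochondrial ribosomal proteins were called in 22.1% of 77, 14 higher and 3 lower, with Mrpl45 from 42.4 ± 2.00 to 65.5 ± 5.75 CPM. The 14 became 7 without replicate 3 of MR + vector, 9 in the Wald test of DESeq2 and 22 with total counts as the scaling.

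**Figure D4:**
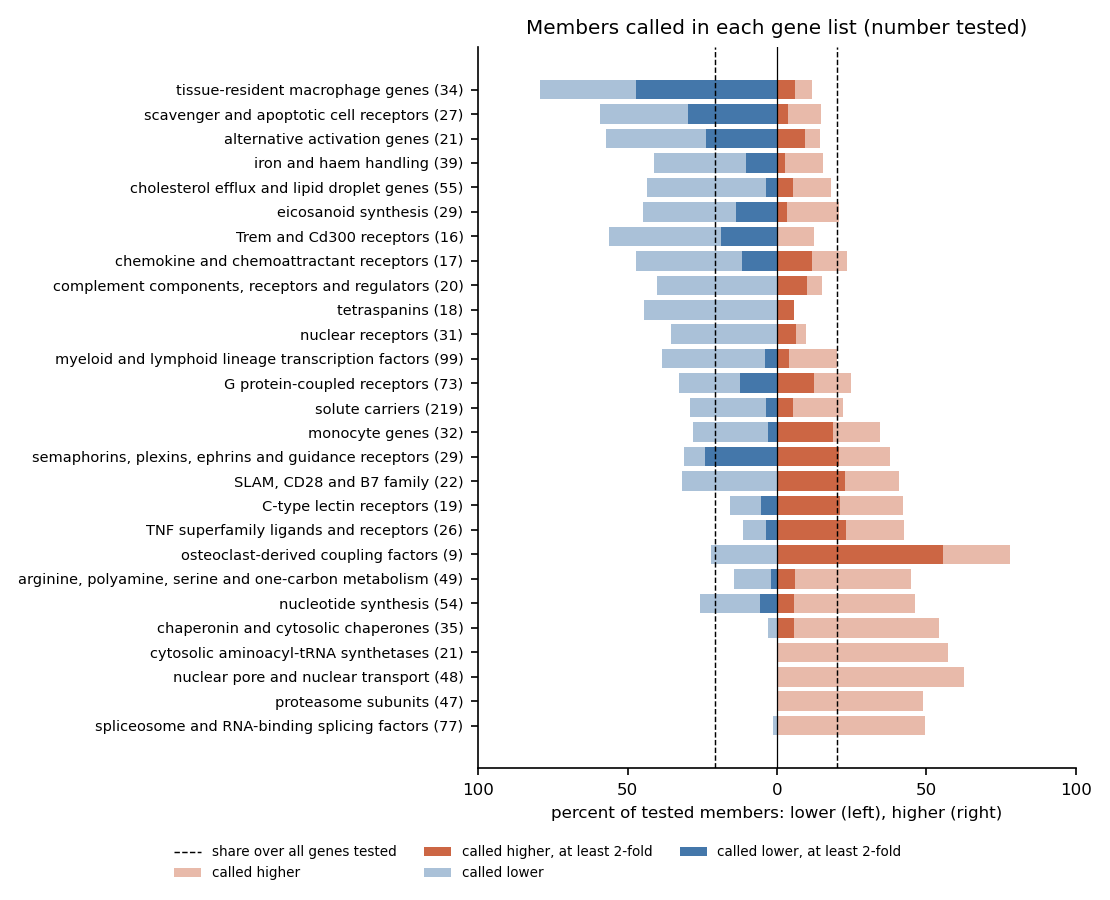
For a selection of gene lists, the bars give the percent of tested members called lower (left, blue) and higher (right, orange), with the dark part changed by at least 2-fold and the number tested in brackets. Dashed lines mark the shares over all genes, 20.6% lower and 20.1% higher. Resident macrophage genes reach furthest to the left, and the lists of protein synthesis have almost no dark part.

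The same contrast in the presence of iBRD9, MR + iBRD9 with M + iBRD9, shares no library with the vector contrast. There 5826 genes were called, 50.4% of those tested. Of the genes called in vector, 4613 (98.0%) had the same sign, as had 563 (98.4%) of those changed by at least 2-fold. Across all genes tested Pearson's r of the 2 sets of log2 changes was 0.869 and Spearman's correlation 0.810, a description over genes, which are not independent replicates. The RANKL change itself differed between the pairs in 241 genes (2.08%) by the interaction test. A replicate block raised this number to 421 and fitting without the filter to 388, and leaving out a single library lowered it to 73 (MR + vector, replicate 2), to 102 (M + vector, replicate 3) or to 158 (MR + vector, replicate 4). Of 153 genes named by the rule and reported here, 25 were among the 241, and 8 of them passed with each vector library left out in turn: Selenop, Slc40a1, Gpr162, Clec4n, Flrt2, Hpgds, Sesn1 and Csf1r. Selenop changed by -1.96 ± 0.05 in vector and -2.51 in iBRD9, and Slc40a1 by -1.91 ± 0.05 and -2.23. The log2 fall of both was thus larger with the inhibitor, from a higher level without RANKL. Mean levels in M + vector and M + iBRD9 were 1364 and 1724 CPM for Selenop and 593 and 742 CPM for Slc40a1. In MR + vector and MR + iBRD9 they were 351 and 303 CPM for Selenop and 158 and 159 CPM for Slc40a1. Clec4n rose by 1.32 ± 0.08 and 1.84 and Flrt2 by 1.04 ± 0.06 and 1.47. Gpr162 rose by 1.80 ± 0.10 and 1.16, less with the inhibitor. Ass1 (3.22 and 3.23) and Acod1 (2.68 and 2.74) are examples for which no difference passed the test, with differences of 0.02 ± 0.16 and 0.06 ± 0.11. Brd9 stood at 55.7 ± 2.37 CPM in M + vector and 55.5 ± 3.32 CPM in MR + vector.

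**Figure D5:**
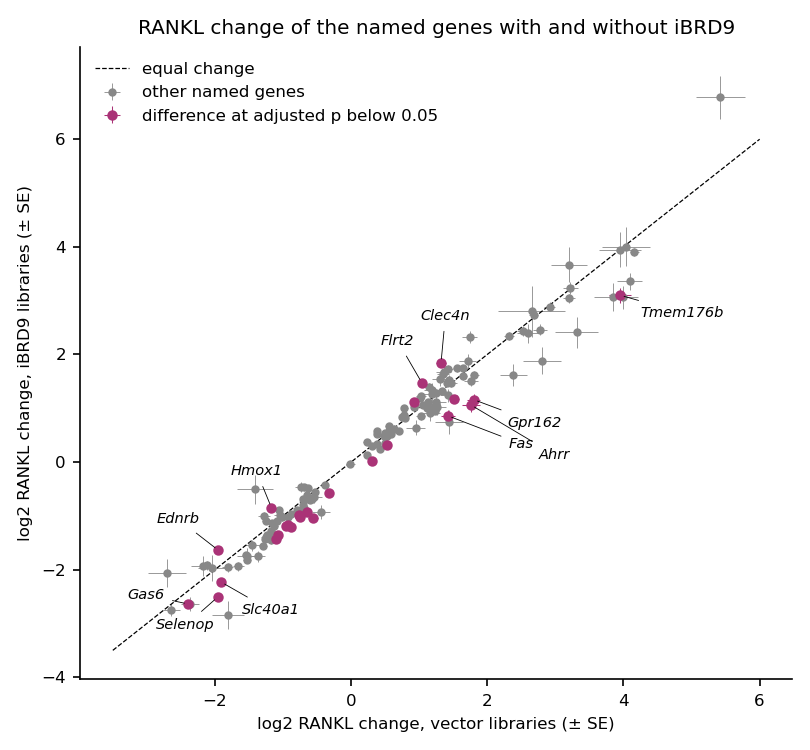
Log2 RANKL change of each reported gene in the vector libraries (x axis) and in the iBRD9 libraries (y axis), each ± SE, with the line of equal change dashed. Purple marks the 25 genes whose change differed at an adjusted p below 0.05, and they lie close to the line compared with the range of the changes themselves.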

How the data were processed

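According to the study's methods, the authors used Cutadapt 1.15 for trimming, HISAT2 2.0.5 for alignment to GRCm39 and HTSeq 0.9.1 for counting. The deposited table holds unnormalized read counts of each gene in each library, and beside them FPKM values, which the authors made from the same counts and a gene length and which were not used for any test. The strand setting and annotation release are not given in the sources used here. It lists 21898 genes, 15697 of them with at least a single read, and 42 rows have a symbol that is not unique.

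CPM values were computed with TMM factors. Genes kept by filterByExpr were tested with edgeR 4.0.16 in R 4.3.3 (quasi-likelihood test, two-sided, a mean per group over 16 libraries, 12 residual degrees of freedom), with DESeq2 1.42.0 as an alternative. The common biological coefficient of variation was 5.9%. On simulated counts, 50 well-counted genes each were changed by factors of 1.5, 2, 4 and 0.5. All were recovered, and 2.9% of the calls were false. The simulation gave every gene the same spread and changed far fewer genes than were called in the data. It changed no genes of few counts, so its recovery and share of false calls do not extend to them. Chi-square values per degree of freedom between libraries of 1 group were 2.81 to 5.49, so each library was counted as its own sample.

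Named genes were, by rule, the 25 largest rises and 25 largest falls in log2 and the 12 largest in CPM each way (non-overlapping libraries, for log2 at least 5 CPM in the higher group, without Gm, Rik, mitochondrial, osteoclast, NF-kB and interferon genes), up to 4 called members of each of 57 lists in each direction, and Brd9, Tnfrsf11a and Csf1r. Of 398 genes so named, 153 are reported. Marker genes are given besides. The members, lists and promoter motifs were chosen with earlier results of these data known. Alternatives were other scalings, no filter, DESeq2, the 8 vector libraries alone, a replicate block, other thresholds and leaving out each of the 8 libraries. Promoter windows came from RefSeq.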

Additional observations from a re-analysis of the deposited data

Results flagged for a closer look

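In 16 of 306 groups of 4 libraries of the named genes, the highest or lowest library stood apart from the other 3 by a gap whose share of the group's range was above Dixon's 95% critical value, where chance alone flags about 1 group in 20. In M + vector these were P2ry12 (32.7 CPM in replicate 4, next 28.8), Ccl6 (1397 CPM in replicate 4, next 1256), Gpr162 (17.3 CPM in replicate 2, next 14.2), Nrp1 (424 CPM in replicate 4, next 394), Il2rg (22.6 CPM in replicate 4, next 28.8), Tbxas1 (181 CPM in replicate 1, next 189), Dock5 (22.7 CPM in replicate 4, next 22.3), Rnd3 (11.6 CPM in replicate 4, next 7.63), Hspa1b (0.976 CPM in replicate 4, next 0.657) and Vegfc (0.344 CPM in replicate 4, next 0.0598). In MR + vector these were Cd5l (22.8 CPM in replicate 2, next 19.5), Fcgrt (24.3 CPM in replicate 2, next 22.3), Maf (318 CPM in replicate 4, next 310), Pf4 (104 CPM in replicate 4, next 117), Nrp1 (177 CPM in replicate 2, next 179) and Vegfc (4.28 CPM in replicate 2, next 6.19). None of these genes lost its call when any 1 library was left out, but all had been picked from the genes called in these libraries.

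The RANKL change differed between the iBRD9 and the vector libraries, by edgeR's test of the difference itself over all genes, in 25 named genes. Values are the log2 change with iBRD9 minus that with vector. Among genes that rose, the rise was larger with iBRD9 in 3, Clec4n (0.51, adjusted p = 0.018), Nrp2 (0.20, adjusted p = 0.02) and Flrt2 (0.43, adjusted p = 0.0097), and smaller in 7, Marco (-0.28, adjusted p = 0.041), Cxcl16 (-0.33, adjusted p = 0.046), Gpr162 (-0.64, adjusted p = 0.013), Fas (-0.56, adjusted p = 0.029), Tmem176b (-0.86, adjusted p = 0.041), Cybb (-0.21, adjusted p = 0.04) and Ahrr (-0.70, adjusted p = 0.041). Among genes that fell, the fall was larger with iBRD9 in 13, Gas6 (-0.26, adjusted p = 0.02), Selenop (-0.55, adjusted p = 4.6e-05), Slc40a1 (-0.32, adjusted p = 0.0067), Maf (-0.23, adjusted p = 0.02), Pf4 (-0.31, adjusted p = 0.043), C1qb (-0.27, adjusted p = 0.02), C1qc (-0.28, adjusted p = 0.02), Vsir (-0.23, adjusted p = 0.032), Cd28 (-0.48, adjusted p = 0.013), Hpgds (-0.26, adjusted p = 0.0093), Arhgap19 (-0.28, adjusted p = 0.04), Sesn1 (-0.32, adjusted p = 0.012) and Csf1r (-0.25, adjusted p = 0.0029), and smaller in 2, Hmox1 (0.31, adjusted p = 0.045) and Ednrb (0.31, adjusted p = 0.024). Of the 25, 8 passed with each vector library left out.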

How the results depend on the processing

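The 2323 higher and 2386 lower genes stayed within 1.5 times of these numbers under other scalings (2349 and 2361 with DESeq2 size factors, 2627 and 2154 with total counts), without the filter (2266 and 2444), in DESeq2 (2234 and 2258), with the 8 vector libraries alone (2473 and 2511), at an adjusted p below 0.01 (1734 and 1830) and with each vector library left out (2093 to 2216 and 2172 to 2269). Asking for 2-fold in addition left 313 and 259. The labels give the groups the same replicate numbers, but same-numbered libraries did not deviate together (correlations of 0.022, 0.032, 0.055 and 0.013), so no pairing was assumed. A replicate block gave 2441 higher and 2483 lower genes and moved the genes whose RANKL change differed with iBRD9 from 241 to 421. That number was 388 without the filter and 73 to 248 with a vector library left out. The 152 called genes of the 153 named kept direction and call under the other scalings, without the filter, in DESeq2, with the 8 vector libraries alone, with the block and with each vector library left out. Nearly all of them were picked from these same libraries as called genes with large changes or small p. Their keeping the call was therefore largely fixed by the choice and says little about other called genes. At an adjusted p below 0.01, 152 passed, and 98 were changed by at least 2-fold. Brd9, which was not called, changed sign around 0, with -0.01 in all libraries, 0.02 under total counts and -0.05 to 0.02 with a vector library left out. Of 1848 list counts under alternatives, 67 moved by over 1.5 times, 5 of them counts of at least 10 members, which are given with the results. Genes of few counts rest on the least depth. The iBRD9 libraries were not left out in turn.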

Other observations

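Further lists are given here beside the 40.7% of all genes called and the 4.95% called with a change of at least 2-fold. Of 18 tetraspanins 8 were lower and 1 higher (50.0% called, 5.56% at 2-fold). The exception was Cd82, a membrane organiser known as a suppressor of metastasis, which rose from 46.7 ± 1.64 to 111 ± 1.31 CPM (SD, n = 4). Of 27 genes of Wnt and Notch signalling 10 were lower and 3 higher (48.1% called, 11.1% at 2-fold). The Wnt receptor Fzd7 fell from 30.4 ± 0.85 to 12.5 ± 1.86 CPM. Of 43 pattern recognition genes 16 were lower and 9 higher (58.1% called, 2.33% at 2-fold). Among them Tlr13, a receptor for bacterial ribosomal RNA in mice, fell from 509 ± 17.4 to 313 ± 10.0 CPM. Of 19 integrins 7 were lower and 4 higher (57.9% called, 10.5% at 2-fold). Itga6, a subunit of laminin receptors, fell from 298 ± 6.07 to 162 ± 4.90 CPM.

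Genes of cyclic nucleotide signalling were lower in 13 and higher in 4 of 31 tested members (54.8% called, 12.9% at 2-fold). Prkacb, a catalytic subunit of protein kinase A, fell from 337 ± 10.8 to 212 ± 5.62 CPM, and Pde4b, which breaks down cyclic AMP, rose from 5.75 ± 0.44 to 15.6 ± 2.12 CPM. Of 22 serpins, cystatins and related inhibitors 9 were higher and 6 lower (68.2% called, 36.4% at 2-fold). Cstb, the intracellular cathepsin inhibitor stefin B, rose from 341 ± 21.2 to 552 ± 24.4 CPM. The 4 and 4 libraries of each of these named genes did not overlap, as was so for 38.1% of all genes tested. The genes were picked by small p in the same libraries, so this adds no support.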
